A study of Mus musculus with 12 samples.

Results

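Chromatin binding of 2 hormone receptors, ERα for estrogens (the Esr1 product) and PR for progesterone (the Pgr product), was examined around 10 genes of the insulin-like growth factor (IGF) system in the mouse mammary gland. These were the ligand genes Igf1 and Igf2, the receptor gene Igf1r, the adaptor gene Irs1 and the binding protein genes Igfbp2, Igfbp3, Igfbp4, Igfbp5, Igfbp6 and Igfbp7. A ChIP-seq peak was linked to a gene when its summit lay within 50 kb of the gene's span (mm10). Overlapping peaks of all libraries were merged into sites, and 378 of 321963 sites had such a summit. The 4 groups used here, each with 2 libraries, were ERα in Y541S glands, ERα in WT glands, PR in Y541S glands and PR in WT glands. Y541S is an amino acid substitution in ERα, whose zygosity was not stated, and WT glands carried no labelled Esr1 mutation. Every animal was kept to 8 weeks of age and implanted with estradiol (E2) and progesterone (P4), and glands were taken 4 days later, so the comparison is between genotypes under hormone and not with untreated glands. A further 4 samples, of the D542G mutation, were not analysed here.

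IGF1 and IGF2 are secreted ligands of the IGF1 receptor, a tyrosine kinase that signals through docking proteins such as IRS1. IGF binding proteins hold the ligands in the extracellular space and release them on proteolysis, which limits or prolongs signalling. In the mammary gland, IGF1 from the stroma and circulation acts with estrogen in growth of the ducts, and in human breast cancer cell lines IGF1R, IRS1 and IGFBP4 are known as estrogen-responsive genes.

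The promoters reached by peaks of the most libraries are shown because they are where a receptor peak and an annotated start of an IGF gene met. Each is the RefSeq sequence (GRCm38.p6) from 250 bases before to 50 after the start, 5′ to 3′ on the strand of the gene. Capitals mark bases inside peaks of at least 2 of the 8 libraries. The Irs1 promoter is chr1:82291390-82291689 on the minus strand, that of Igf1r is chr7:67952007-67952306 on the plus strand, that of Igfbp4 is chr11:99040994-99041293 on the plus strand, and that of Igfbp7 is chr5:77407996-77408295 on the minus strand.
Irs1: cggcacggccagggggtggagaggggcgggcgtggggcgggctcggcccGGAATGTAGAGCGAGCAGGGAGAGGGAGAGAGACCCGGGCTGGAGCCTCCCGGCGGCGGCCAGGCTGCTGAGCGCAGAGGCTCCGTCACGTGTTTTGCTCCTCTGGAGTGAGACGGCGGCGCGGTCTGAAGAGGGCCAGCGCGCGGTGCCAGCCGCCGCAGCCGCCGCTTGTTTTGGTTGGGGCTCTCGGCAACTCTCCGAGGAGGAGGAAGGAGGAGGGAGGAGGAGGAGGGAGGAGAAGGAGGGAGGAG
Igf1r: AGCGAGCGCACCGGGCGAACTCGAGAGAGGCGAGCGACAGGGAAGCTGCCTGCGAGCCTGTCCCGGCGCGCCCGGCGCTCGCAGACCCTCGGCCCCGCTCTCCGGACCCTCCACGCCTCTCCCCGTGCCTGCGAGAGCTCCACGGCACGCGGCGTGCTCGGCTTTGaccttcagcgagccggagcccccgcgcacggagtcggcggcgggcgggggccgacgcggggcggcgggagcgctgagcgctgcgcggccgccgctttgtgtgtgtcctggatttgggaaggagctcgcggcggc
Igfbp4: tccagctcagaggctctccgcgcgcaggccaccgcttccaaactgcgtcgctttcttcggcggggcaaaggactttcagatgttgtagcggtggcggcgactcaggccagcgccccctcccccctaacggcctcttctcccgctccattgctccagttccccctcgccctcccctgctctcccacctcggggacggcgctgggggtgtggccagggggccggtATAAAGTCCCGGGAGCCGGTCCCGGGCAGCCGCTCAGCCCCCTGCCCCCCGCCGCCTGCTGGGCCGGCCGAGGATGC
Igfbp7: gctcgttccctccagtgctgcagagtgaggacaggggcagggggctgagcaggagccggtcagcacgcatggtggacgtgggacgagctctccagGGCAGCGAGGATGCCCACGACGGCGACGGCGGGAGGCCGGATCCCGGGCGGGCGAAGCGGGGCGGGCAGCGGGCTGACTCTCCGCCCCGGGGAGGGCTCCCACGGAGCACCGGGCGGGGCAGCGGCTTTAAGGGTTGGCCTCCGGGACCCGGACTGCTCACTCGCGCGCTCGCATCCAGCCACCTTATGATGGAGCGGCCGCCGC

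Peaks reached the Irs1 promoter in both Y541S and neither WT libraries of ERα, and likewise in both Y541S and neither WT libraries of PR. A merged site over the Irs1 start nevertheless had peaks in all 8 libraries. Its WT peaks ended short of the printed sequence, so the called peaks of these libraries differed in where they ended. The share of all promoters with this pattern was not computed. The Igf1r promoter was reached in 1 ERα library (WT replicate 1) and in 3 PR libraries (both Y541S libraries and WT replicate 2). The Igfbp4 promoter was reached by ERα in Y541S replicate 2 and both WT libraries and by PR in none. A merged site over the Igfbp4 start did have PR peaks in both Y541S libraries, at ranks of 84.5% and 90.6%. These PR peaks lay outside the printed sequence. Peaks of ERα in Y541S replicate 1 and WT replicate 1 and of PR in WT replicate 2 reached the Igfbp7 promoter. The 10 genes have 14 annotated starts, and 8 of these 14 promoters had no peak in any library, against 40.7% of all coding-gene promoters. Those 8 were all 4 promoters of Igf2, both of Igfbp2, and those of Igfbp3 and Igfbp6. No IGF promoter had an ERα peak in all 4 ERα libraries (30.6% of coding-gene promoters did) or a PR peak in all 4 PR libraries (26.5%).

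The palindromic estrogen response element was searched as GGTCA, any 3 bases and TGACC, and the progesterone response element as GNACA, any 3 bases and TGTNC, on both strands. Neither occurred in the 14 promoters, and they occurred in 0.0700% and 0.475% of all promoters of this length in the RefSeq table. The shorter core motif GGTCA occurred in 7 of the 14 promoters, against 40.5% of all promoters. In the Igf1r promoter it lies at −86 from the start, read as TGACC on the printed strand, where the capitals end. The core motif TGTTC occurred in 2 of the 14, against 41.7%. The longer elements can contain these core letters, and a match describes the sequence only.

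Each library's list had between 64488 and 113695 peaks, of which 78 to 136 were linked to IGF genes, and for each receptor both Y541S lists were longer than both WT lists. Depth differed between libraries. Background coverage, recovered from the peak values, was 2.29 and 1.72 in Y541S ERα, 2.39 and 1.30 in WT ERα, 2.45 and 1.35 in Y541S PR, and 2.68 and 0.927 in WT PR, so replicate 2 was shallower in every group. The labels give whole glands, whereas the series title names luminal cells, and neither the genotype nor the cell type can be checked from peak positions. In whole tissue, fewer cells of a type and less receptor bound per cell cannot be told apart. A peak's rank is its position by the authors' −log10 p as a percentage of its own list, so small ranks are strong peaks. The peaks linked to IGF genes had median ranks of 48.2% to 64.6%, and 3 to 8 per library were among the strongest 5% of the list. Of the 378 IGF sites, 227 (60.1%) had a peak in 1 library only, against 60.6% of all sites, and a site without a listed peak may carry signal too weak to be called. The linked summit nearest the limit of the window lay 49.9 kb outside its gene, and the nearest summit left out lay 50.2 kb outside. Of the ERα peaks near IGF genes, 37.5% and 40% in Y541S and 34.0% and 46.2% in WT overlapped a peak of the other replicate, and of the PR peaks 65.5% and 60.5% in Y541S and 52.4% and 45.2% in WT did so. Over all peaks of the same lists, these shares were 44.0% and 44.1% in Y541S and 39.1% and 43.6% in WT for ERα, and 64.6% and 72.5% in Y541S and 55.4% and 49.1% in WT for PR.

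**Figure D1:**
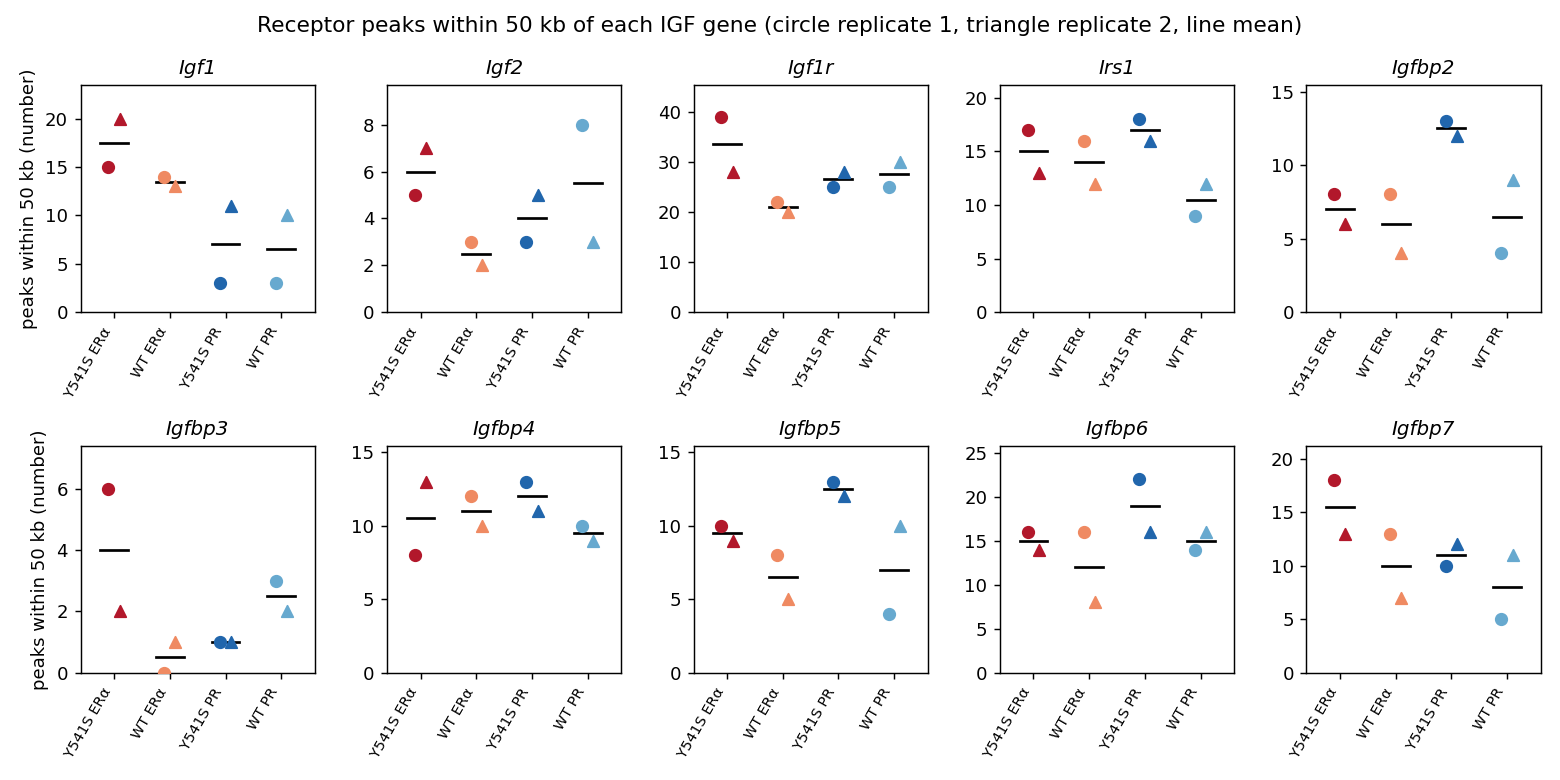
Number of linked peaks (vertical axis) for each of the 10 IGF genes in the 4 groups; points are single libraries and the short lines are means of 2. Igf1 has every ERα point (13 to 20) above every PR point (3 to 11), and in Igfbp3 no group exceeds 6.

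Igf1, the ligand gene with the more ERα peaks, had 15 and 20 linked ERα peaks in Y541S glands, against 14 and 13 in WT glands. It had 3 and 11 PR peaks in Y541S glands, against 3 and 10 in WT glands. Every ERα library thus lay above every PR library, a pattern found in 0.873% of coding genes with a linked peak. Among the 10 IGF genes Igf1 alone had it, and none had the reverse pattern, which 4.63% of coding genes showed. The mean log2 ratio of ERα over PR peaks was 1.27. This pattern was singled out after its values were seen, so it is given as a description with no test. Replicate number moved with the PR values: both replicate 1 PR libraries had 3 peaks and the replicate 2 libraries had 11 and 10, and its part in the result was not tested. Within replicate 1 the ERα libraries had 15 and 14 peaks, and within replicate 2 they had 20 and 13. With only peaks of −log10 p of at least 5, the ERα numbers were 5 and 5 in Y541S and 7 and 6 in WT, the PR numbers were 2 and 6 in Y541S and 0 and 6 in WT, and the receptors overlapped. Within 10 kb of Igf1 they also overlapped, with 8 and 9 ERα peaks in Y541S and 7 and 9 in WT, and 2 and 9 PR peaks in Y541S and 2 and 9 in WT.

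The strongest site linked to Igf1 was ERα-bound and lay 39.0 kb upstream of the annotated start, at chr10:87821792-87822353, outside any coding gene. Its ranks were 2.79% and 2.09% in Y541S ERα and 3.33% and 3.93% in WT ERα, and none of the 4 PR libraries had a peak there. Summit coverage was 32 and 25 in Y541S and 38 and 17 in WT. The 4 ERα libraries were close in rank at this site. As percentages of lists of unequal length, both Y541S ranks were smaller than both WT ranks. By position in the list, 2985 and 2204 in Y541S and 2415 and 2535 in WT, the genotypes overlapped, as they did in summit coverage. A weaker site with ERα in all 4 libraries and no PR peak lay 48.7 kb upstream, at chr10:87812204-87812658, with ranks of 65.1% and 50.7% in Y541S ERα and 21.2% and 15.4% in WT ERα. Here the WT ranks were the stronger. Inside the gene, 19.1 kb past the start at chr10:87880003-87880998, ERα was present in Y541S at ranks of 13.2% and 9.97% and in 1 WT library at 19.9%. PR had peaks at this site in all 4 libraries, at 72.6% and 41.7% in Y541S and 67.6% and 39.0% in WT. No coding gene other than Igf1 reaches into this window.

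Igf2, the fetal growth factor gene, had few peaks: 5 and 7 for ERα in Y541S glands, against 3 and 2 in WT glands, and 3 and 5 for PR in Y541S glands, against 8 and 3 in WT glands. The ERα numbers were higher in both Y541S libraries, as for 44.8% of coding genes, and the PR numbers overlapped between genotypes. With a −log10 p of at least 5, the log2 ratio of ERα peaks, Y541S over WT, was 0. With the 20000 strongest peaks of each list it was −0.50. None of its 21 sites was bound in all 4 libraries of a receptor, and 14 were found in 1 library only. Its single genotype-specific site was a weak PR site in both WT libraries and neither Y541S library, 37.9 kb past the start at chr7:142619456-142619781, with ranks of 65.4% and 69.5%. Ins2, which encodes insulin, lies in the same window.

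**Figure D2:**
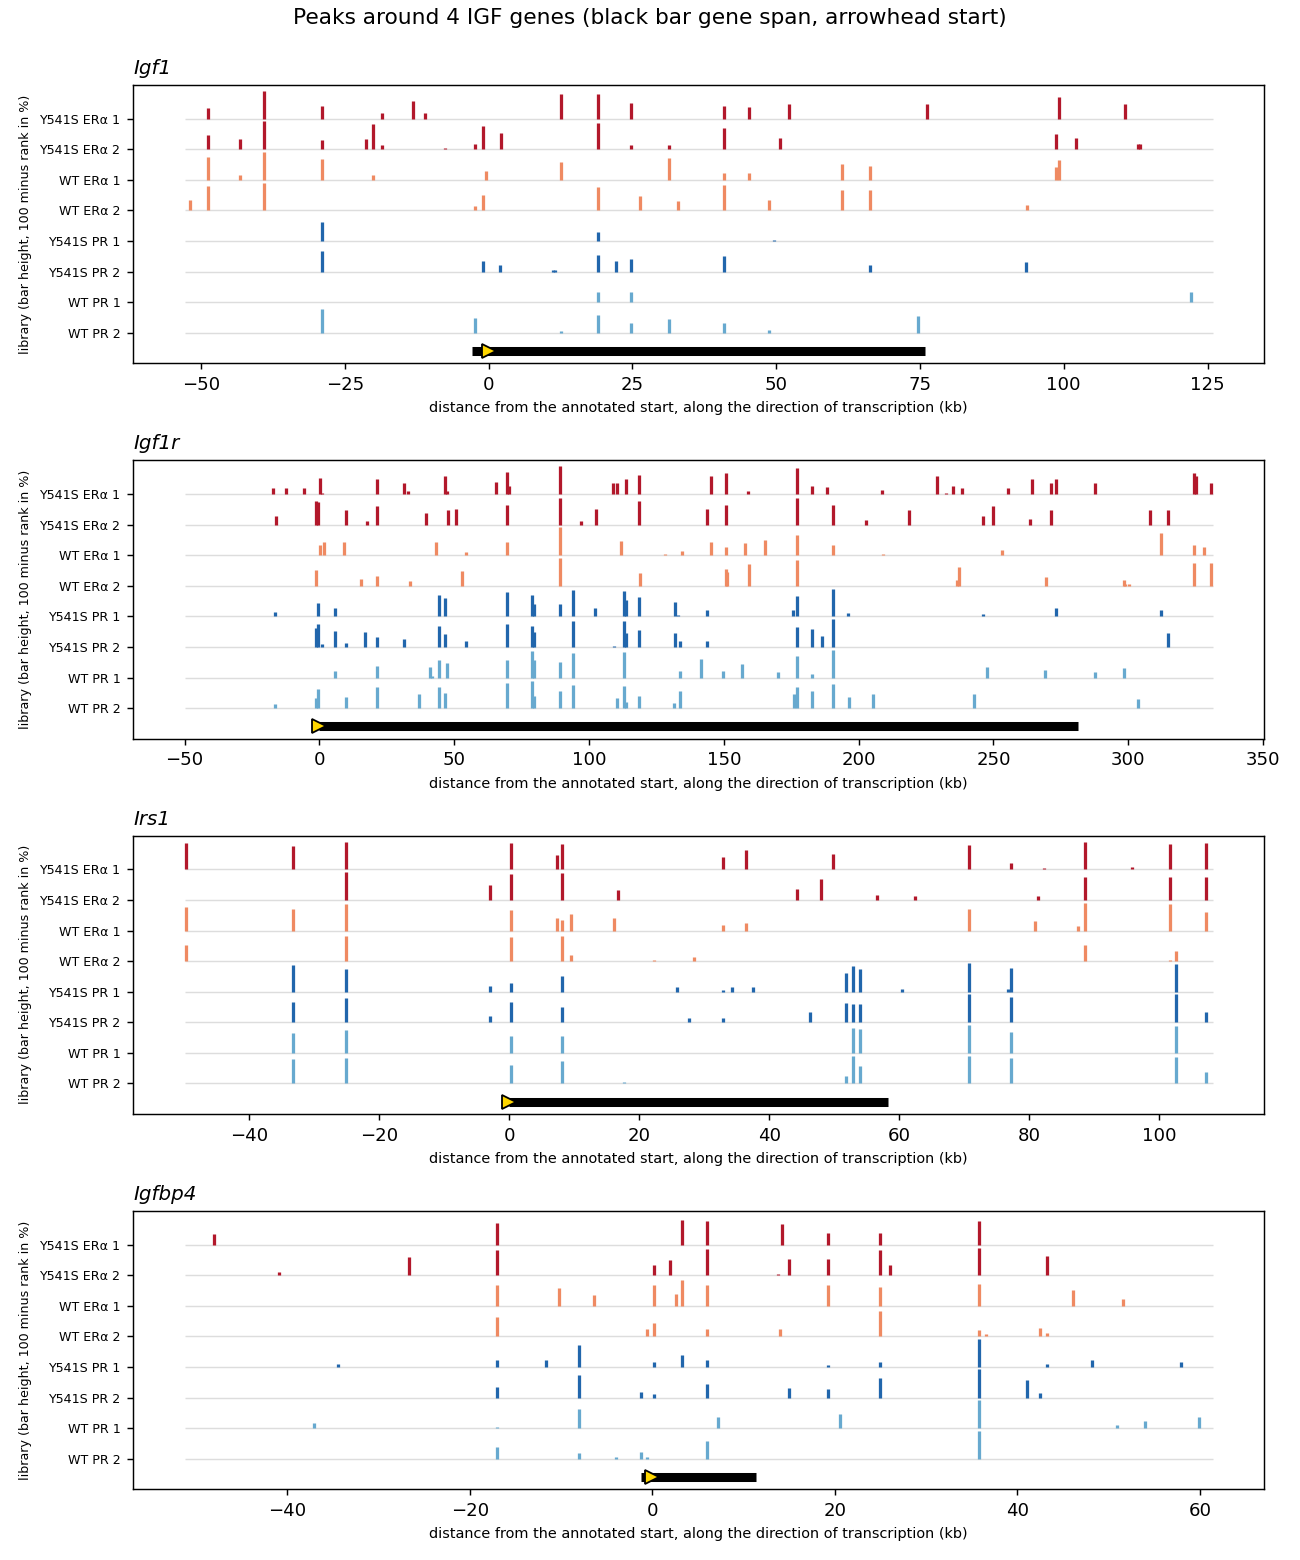
Peaks of the 8 libraries around Igf1, Igf1r, Irs1 and Igfbp4 by distance from the annotated start (kb, along the direction of transcription); each bar is a peak placed at its site's strongest summit, taller for a stronger rank, and the black bar is the gene. The ERα bar 39.0 kb upstream of Igf1 has no PR counterpart. In Igf1r, 5 sites have PR in all 4 libraries and no ERα, and 1 has the reverse. Over the 10 genes, PR in all 4 libraries without ERα took 2.65% of sites, against 2.55% of all sites.

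Igf1r, which encodes the receptor for both ligands, is the longest of the 10 genes, and 93 of its 112 sites lay inside it. It had 39 and 28 ERα peaks in Y541S glands, against 22 and 20 in WT glands. PR peaks numbered 25 and 28 in Y541S glands, against 25 and 30 in WT glands. ERα numbers lay higher in both Y541S libraries, as for 44.8% of coding genes, and PR numbers overlapped between genotypes. Per 100 kb of window, Igf1r had 8.78 ± 2.04 ERα peaks in Y541S and 5.51 ± 0.37 in WT (SD, n = 2 each), and the medians over all coding genes were 6.95 and 4.74.

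The 2 receptors had their strongest Igf1r sites at different places within the gene. The best ERα site lay 89.4 kb past the start, at chr7:68041356-68041975, with ranks of 1.56% and 5.63% in Y541S ERα and 1.47% and 0.921% in WT ERα. PR had peaks there in 1 Y541S library at 59.6% and in both WT libraries at 48.8% and 40.9%. The best PR site lay 190.5 kb past the start, at chr7:68142307-68143086, where ERα had peaks in Y541S replicate 2 at 33.5% and in WT replicate 1 at 65.7%. PR ranked there at 3.09% and 2.75% in Y541S and 3.16% and 15.9% in WT. Each of these 2 sites was chosen as the best of 1 receptor, and the other receptor ranked lower there or had no peak. PR bound 5 sites of the gene in all 4 libraries without any ERα peak, 44.5, 78.8, 79.5, 93.9 and 113 kb past the start, and ERα bound 1 such site without PR, 151 kb past the start. The single site with peaks in all 8 libraries lay 177 kb past the start, at chr7:68128946-68130324. Its ERα ranks were 10.5% and 8.34% in Y541S and 31.5% and 10.9% in WT, and its PR ranks were 30.8% and 31.7% in Y541S and 25.1% and 25.2% in WT.

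Irs1, which encodes the docking protein that couples the IGF1 and insulin receptors to PI3-kinase, had 17 and 13 ERα peaks in Y541S glands, against 16 and 12 in WT glands. Its PR peaks numbered 18 and 16 in Y541S glands, against 9 and 12 in WT glands. Here the PR numbers lay higher in both Y541S libraries, as for 27.5% of coding genes, and the ERα numbers overlapped. The log2 ratio of PR peaks, Y541S over WT on the log2(number + 1) scale, was 0.66 ± 0.21 (SE).

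The smallest PR rank of a single library near any of the 10 genes was at a site beyond the 3′ end of Irs1, whose mean over the 4 PR libraries (0.976%) came after those of sites near Igfbp4 (0.829%) and Igfbp6 (0.952%). At chr1:82220371-82221025, 70.7 kb past the start and 12.4 kb outside the gene, ERα had a peak in Y541S replicate 1 at 15.7% and in WT replicate 1 at 23.9%. PR ranked there at 0.264% and 0.206% in Y541S and 0.811% and 2.62% in WT, with summit coverage of 215 and 116 in Y541S and 75 and 41 in WT. Both Y541S PR libraries ranked the site above both WT libraries. Other PR sites described here, such as chr1:82188417-82189153, had the same order, and its share over all sites was not computed. Further on lay a pair of adjacent sites, each with 1 receptor in all 4 libraries. The ERα site at chr1:82189476-82190113 had ranks of 11.6% and 20.3% in Y541S and 5.65% and 99.3% in WT, with no PR peak. The PR site at chr1:82188417-82189153 had ranks of 0.950% and 2.02% in Y541S and 4.45% and 6.26% in WT, and 1 ERα library had a peak there. Apart from that 1 ERα peak, the peaks of the receptors here lay side by side and did not overlap. Another ERα site without PR, at chr1:82202661-82203170, had ranks of 2.30% and 19.0% in Y541S and 3.01% and 43.7% in WT. Replicate 2 ranked it lower in both genotypes, and the part of depth in this was not tested.

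Irs1 also had 3 sites with peaks in all 8 libraries, more than any other of the 10 genes. The best lay 25.2 kb upstream at chr1:82315979-82317021, inside the neighbouring gene Rhbdd1 and across an annotated Rhbdd1 promoter. Its ERα ranks were 4.61% and 3.37% in Y541S and 8.25% and 12.5% in WT, and its PR ranks were 20.0% and 16.3% in Y541S and 20.4% and 9.93% in WT. Another, chr1:82290551-82291656, ran over the Irs1 start, with ERα ranks of 8.62% and 7.39% in Y541S and 29.0% and 15.5% in WT. PR ranked there at 70.3% and 28.1% in Y541S and 43.2% and 35.2% in WT, so the PR ranks overlapped between genotypes. In this merged site the WT peaks ended short of the printed promoter window, which the Y541S peaks entered.

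**Figure D3:**
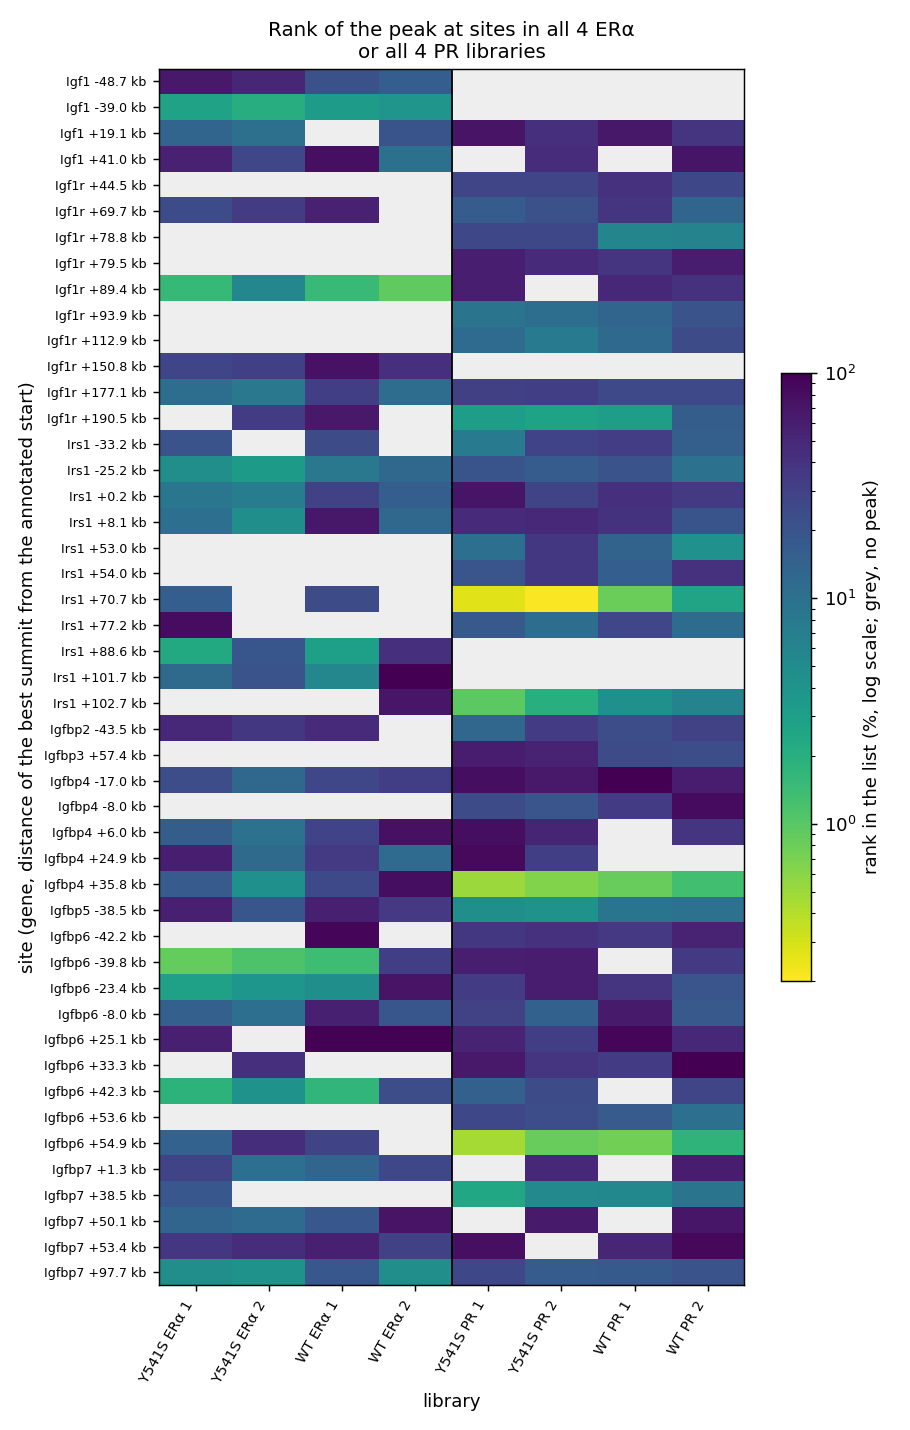
Ranks of the 47 IGF sites with peaks in all 4 ERα or all 4 PR libraries (rows) in the 8 libraries (columns); colour is the rank as a percentage of the list on a log scale, and grey marks no peak. 10 rows are filled in all 8 columns, and 15 rows hold 1 receptor only.

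Igfbp6, whose product prefers IGF2, and Igfbp4, whose product is cleaved by the protease encoded by Pappa, had the strongest PR sites of the binding protein genes. At chr11:99076620-99077471, 35.8 kb past the Igfbp4 start and inside the neighbouring gene Tns4, ERα ranked at 16.8% and 4.47% in Y541S and 25.2% and 79.8% in WT. PR ranked at the same site at 0.511% and 0.644% in Y541S and 0.841% and 1.32% in WT. At chr15:102198782-102199365, 54.9 kb past the Igfbp6 start and inside Csad, ERα ranked at 14.1% and 44.4% in Y541S and at 27.7% in WT replicate 1. PR ranked there at 0.464% and 0.847% in Y541S and 0.754% and 1.74% in WT. Both sites were among the strongest 2% of PR peaks in each library, and both lay in a gene other than the IGF gene.

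The smallest ERα rank of a single library near any of the 10 genes was at a site 39.8 kb upstream of Igfbp6, inside Tns2, at chr15:102103822-102104672. By the mean over the 4 ERα libraries this site (8.81%) came after others, among them those described in Igf1r (2.39%) and upstream of Igf1 (3.03%). Its ERα ranks were 0.874% and 1.14% in Y541S and 1.39% and 31.9% in WT, and summit coverage was 90 and 50 in Y541S and 101 and 17 in WT. PR peaks there were weak, at 59.9% and 62.1% in Y541S and 35.1% in WT replicate 2. WT ERα replicate 2, the shallowest ERα library, stood apart at this site. It did so also at chr15:102186174-102186666, inside Csad, where ERα ranked at 1.81% and 4.13% in Y541S and 1.69% and 22.8% in WT. Igfbp6 had 16 and 14 ERα peaks in Y541S glands, against 16 and 8 in WT glands, and 22 and 16 PR peaks in Y541S glands, against 14 and 16 in WT glands. These numbers overlapped between genotypes for both receptors. Igfbp6 had the highest peak density of the 10 genes in each group, with 14.2 ± 1.34 ERα peaks per 100 kb in Y541S and 11.4 ± 5.37 in WT, and 18.0 ± 4.03 PR peaks in Y541S and 14.2 ± 1.34 in WT (SD, n = 2 each). The better of its 2 sites with peaks in all 8 libraries lay 8.0 kb upstream, at chr15:102135401-102137053 in Spryd3, with ERα ranks of 14.9% and 10.4% in Y541S and 58.3% and 18.9% in WT. The window of Igfbp6 also holds Eif4b, Tns2, Spryd3, Soat2 and Csad, and 28 of its 41 sites lay inside another coding gene.

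Igfbp4 itself had 8 and 13 ERα peaks in Y541S glands, against 12 and 10 in WT glands, and 13 and 11 PR peaks in Y541S glands, against 10 and 9 in WT glands. The PR numbers were higher in both Y541S libraries, as for 27.5% of coding genes, and the ERα numbers overlapped. A PR site with no ERα peak lay 8.0 kb upstream of Igfbp4, at chr11:99033031-99033484, with ranks of 23.6% and 19.3% in Y541S and 33.9% and 82.4% in WT. The site with peaks in all 8 libraries 17.0 kb upstream, at chr11:99023697-99025041, had ERα ranks of 23.1% and 12.2% in Y541S and 26.6% and 31.2% in WT. It ran across an annotated promoter of Top2a, which encodes a DNA topoisomerase, and 13 of the 39 Igfbp4 sites lay inside another coding gene.

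Igfbp7, a binding protein of low IGF affinity, had 18 and 13 ERα peaks in Y541S glands, against 13 and 7 in WT glands, and 10 and 12 PR peaks in Y541S glands, against 5 and 11 in WT glands. Both sets overlapped between genotypes. Its best PR site lay within the gene, 38.5 kb past the start at chr5:77369287-77369888, with ranks of 2.43% and 5.35% in Y541S PR and 5.52% and 9.16% in WT PR, and 1 ERα peak at 18.6% in Y541S replicate 1. Its best ERα site, at chr5:77309151-77310828 inside Noa1, had peaks in all 8 libraries, with ERα ranks of 4.64% and 4.08% in Y541S and 18.6% and 4.68% in WT. That site ran across an annotated promoter of Polr2b, which encodes an RNA polymerase II subunit.

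Igfbp2 and Igfbp5 lie close together on chromosome 1, and their windows share peaks, so their numbers are not independent. Igfbp2 had 8 and 6 ERα peaks in Y541S glands, against 8 and 4 in WT glands, and 13 and 12 PR peaks in Y541S glands, against 4 and 9 in WT glands. Igfbp5, which is known to rise in the involuting gland, had 10 and 9 ERα peaks in Y541S glands, against 8 and 5 in WT glands, and 13 and 12 PR peaks in Y541S glands, against 4 and 10 in WT glands. PR numbers were higher in both Y541S libraries for both genes, as for 27.5% of coding genes. The only site near them with peaks in all 8 libraries lay 38.5 kb upstream of Igfbp5, at chr1:72912809-72913931. ERα ranked there at 58.0% and 19.0% in Y541S and 57.6% and 35.9% in WT, and PR ranked at 4.52% and 4.16% in Y541S and 8.97% and 9.80% in WT, so every PR rank was smaller than every ERα rank. The best PR site assigned to Igfbp2, 43.5 kb upstream at chr1:72780636-72781221, was weaker, with ranks of 12.8% and 33.0% in Y541S and 23.1% and 29.9% in WT.

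Igfbp3, which encodes the main carrier of circulating IGFs, had the fewest peaks of the 10 genes. Igfbp1 and Adcy1 reach into its window. ERα peaks numbered 6 and 2 in Y541S glands, against 0 and 1 in WT glands. PR peaks numbered 1 and 1 in Y541S glands, against 3 and 2 in WT glands. More ERα and fewer PR peaks in both Y541S libraries were found for Igfbp3 alone among the 10 genes, and for 1.31% of coding genes. With a −log10 p of at least 5, Igfbp3 had 1 and 0 ERα peaks in Y541S and none in WT, and 1 and 1 PR peaks in Y541S and 1 and 2 in WT, so neither receptor separated the genotypes. Within 10 kb it had 4 and 1 ERα peaks in Y541S and 0 and 1 in WT, with no PR peak in any library, and none of its peaks was among the 20000 strongest of a list. Its single site with PR in all 4 libraries, at chr11:7156330-7156718, lay inside Adcy1 and 49.6 kb outside Igfbp3, near the limit of the window, with ranks of 60.8% and 53.6% in Y541S and 24.4% and 23.1% in WT.

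The comparison of genotypes asks how ERα with the Y541S substitution and PR bind near these genes. Both Y541S ERα libraries had more linked peaks than both WT libraries for 5 of the 10 genes (Igf1, Igf2, Igf1r, Igfbp3 and Igfbp5), against 44.8% of coding genes, and fewer for 0 genes, against 1.04%. Both Y541S PR libraries had more peaks for 4 genes (Irs1, Igfbp2, Igfbp4 and Igfbp5), against 27.5% of coding genes, and fewer for 1 gene (Igfbp3), against 3.54%. The windows of Igfbp2 and Igfbp5 share peaks, so these 2 of the 4 genes are not independent. The share of IGF genes was thus close to that of all genes for ERα. The median log2 ratio over the 10 genes was 0.44 for ERα and 0.31 for PR, and over all coding genes it was 0.45 and 0.21. An exact permutation test of 2 against 2 libraries cannot give a p below 0.33, so no single gene could pass a threshold under that test. With the 20000 strongest peaks of each list, which makes the lists equally long, the ERα count was 0 genes and the PR count 1 (Igfbp5). With a −log10 p of at least 5 the ERα count was 2 and the PR count 7, and with a 10 kb window each was 1.

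Site by site, 10 of the 270 IGF sites with an ERα peak (3.70%) were bound in both Y541S and neither WT libraries, against 4.61% of all ERα sites. ERα was bound in both WT and neither Y541S libraries at 3 (1.11%, against 0.635% of all sites), and in all 4 libraries at 24 (8.89%, against 9.42%). For PR, 12 of 202 sites (5.94%, against 6.97%) were bound in both Y541S and neither WT libraries, 1 (0.495%, against 0.578%) in both WT and neither Y541S libraries, and 33 (16.3%, against 20.2%) in all 4. Apart from the class with 3 sites, these shares lay below those of all sites by less than 5 percentage points. Among the genotype-specific sites the best mean rank was 24.8% for ERα and 51.7% for PR. The best of the ERα sites in Y541S only lay 46.5 kb upstream of Igfbp6, at chr15:102097521-102097998, with ranks of 23.7% and 25.8%, and no PR library had a peak there. In Igf1r, chr7:68070353-68071007 had ERα ranks of 33.6% and 17.4% in the Y541S libraries, with PR peaks in both Y541S libraries and WT replicate 2. Near Igfbp5, chr1:72914648-72915269 ranked at 18.7% and 33.3%, and chr1:72854963-72855340, between Igfbp2 and Igfbp5, at 50.2% and 8.48%. Weaker ERα sites of this kind lay in Igfbp7, at chr5:77384091-77384610, with ranks of 29.2% and 63.5%, and in Igf1r, at chr7:68223308-68223629, with ranks of 65.1% and 50.7%.

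Of the ERα sites bound in WT only, 2 lay inside Igf1, at chr10:87922366-87922676 with ranks of 46.5% and 28.3% and at chr10:87927039-87927541 with ranks of 52.0% and 31.0%. The other was inside Irs1, at chr1:82281799-82282013, with ranks of 41.6% and 80.2%. Igf1 thus had sites of both kinds, 2 in Y541S only and 2 in WT only. The best PR sites in Y541S only were chr7:68083992-68084520 in Igf1r, with ranks of 51.0% and 52.4%, and chr11:99065712-99066611 near Igfbp4, with ranks of 85.3% and 31.8%. The interval near Igfbp4 was also bound by ERα in all 4 libraries, at 59.9% and 11.6% in Y541S and 35.2% and 11.3% in WT. The others by rank were in or near Igfbp7, Igfbp5, Igfbp6 and Igf1r, with mean ranks of 64.4%, 71.7%, 78.2% and 80.6%.

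**Figure D4:**
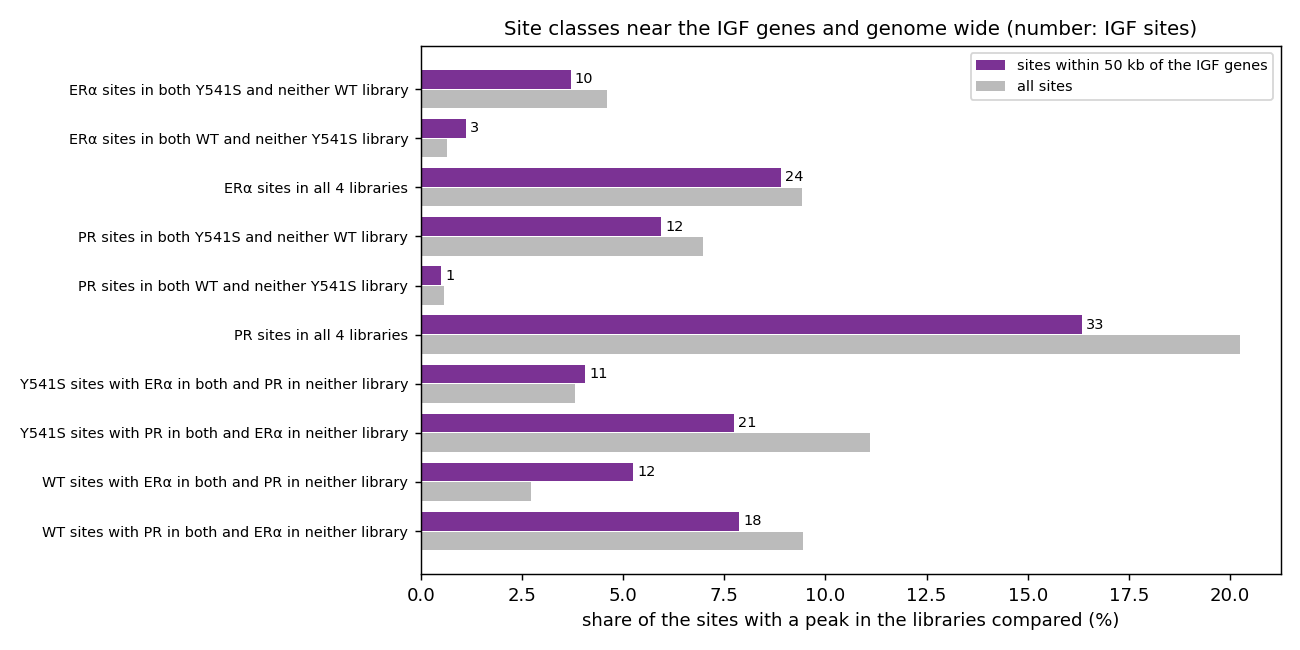
Share of sites in each class of presence (percent) for IGF sites and for all sites; the number at each IGF bar counts IGF sites. In WT glands, ERα without PR takes a larger share of IGF sites (5.24%) than of all sites (2.73%). These are 12 IGF sites, of which Igf1 has 4 and Irs1 has 4. The Y541S-only classes lie below the share of all sites.

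Between receptors, the question was where ERα and PR met near the same gene. In Y541S glands, both ERα libraries lay above both PR libraries for 3 genes (Igf1, Igfbp3 and Igfbp7), against 17.3% of coding genes, and below for 2 (Igfbp2 and Igfbp5), against 19.6%. In WT glands, ERα lay above PR for 1 gene (Igf1), against 5.13%, and below for 2 (Igf1r and Igfbp3), against 30.3%. Igfbp3 therefore stood on opposite sides in the genotypes, on at most 6 peaks in a library. With a −log10 p of at least 5, its receptors overlapped in Y541S glands, at 1 and 0 ERα and 1 and 1 PR peaks. The share of coding genes that change sides was not computed. In Y541S glands, 11 IGF sites had ERα in both libraries and PR in neither (4.06%, against 3.82% of all sites), 21 had PR and not ERα (7.75%, against 11.1%), and 24 had both receptors (8.86%, against 11.5%). In WT glands, 12 had ERα and not PR (5.24%, against 2.73%), 18 had PR and not ERα (7.86%, against 9.44%), and 13 had both (5.68%, against 7.51%). ERα peaks near IGF genes shared sequence with PR peaks of their own genotype and replicate number in 35.3% and 42.5% of cases in Y541S and 23.6% and 39.7% in WT, against 47.6% and 39.9% of all ERα peaks in Y541S and 40.8% and 42.9% in WT. PR peaks near IGF genes shared sequence with ERα peaks in 44.5% and 43.9% of cases in Y541S and 30.5% and 32.7% in WT, against 43.5% and 40.6% of all PR peaks in Y541S and 34.9% and 29.1% in WT. For ERα, the IGF share was thus well below that of all peaks in replicate 1 of both genotypes and near it in replicate 2. For PR it lay near that of all peaks, higher in 3 of 4 libraries and lower in WT replicate 1. These differences were not tested.

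ERα in all 4 libraries and PR in none was found at 5 IGF sites (1.32%, against 0.505% of all sites), which were the 2 upstream of Igf1, 2 beyond Irs1 and 1 in Igf1r. PR in all 4 and ERα in none was found at 10 (2.65%, against 2.55%), of which 5 were in Igf1r and 2 in Irs1. Peaks in all 8 libraries were found at 10 (2.65%, against 3.76%). At these 10 sites the mean ERα and mean PR summits lay 19 to 223 bp apart. Of the same 10 sites, 5 overlapped an annotated promoter, 1 of them that of Irs1 and 4 those of neighbours (Rhbdd1, Top2a, Spryd3 and Polr2b), and 42.2% of all sites with peaks in 8 libraries overlapped one. Of the 47 sites with peaks in all 4 libraries of at least 1 receptor, 21 lay inside the IGF gene, 14 inside another coding gene and 12 outside coding genes.

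Among 27 other genes of the IGF and insulin pathway, both Y541S ERα libraries had more linked peaks than both WT libraries for 14 (all coding genes 44.8%) and fewer for 0 (1.04%). Both Y541S PR libraries had more for 12 (all coding genes 27.5%) and fewer for 2, Igfbp1 and Pik3ca (3.54%). Igfbp1 lies in the window of Igfbp3, and Ins2 in that of Igf2, so their numbers are not independent of those genes. The median log2 ratio was 0.36 for ERα and 0.32 for PR. The widest separation for ERα was at Igfbpl1, a gene related to the binding proteins, with 8 and 10 peaks in Y541S glands, against 2 and 3 in WT glands (log2 1.52 ± 0.25, SE). Pappa and Pappa2, which encode proteases that cleave IGF binding proteins, followed. Pappa had 12 and 7 ERα peaks in Y541S glands, against 6 and 2 in WT glands, and Pappa2 had 16 and 11 in Y541S glands, against 5 and 7 in WT glands. Grb14, which encodes an adaptor that inhibits insulin receptor signalling, had 7 and 6 ERα peaks in Y541S glands, against 4 and 2 in WT glands. For PR it led the list, with 11 and 9 peaks in Y541S glands, against 2 and 5 in WT glands (log2 1.37 ± 0.52, SE). Stc1, which encodes stanniocalcin, had 3 and 4 PR peaks in Y541S glands, against 1 and 1 in WT glands. Akt1, which encodes a kinase downstream of PI3-kinase, had 27 and 23 PR peaks in Y541S glands, against 10 and 17 in WT glands, and Pappa had 11 and 12 PR peaks in Y541S glands, against 7 and 7 in WT glands. Igfbpl1 had no such separation for PR, with 4 and 7 peaks in Y541S glands, against 8 and 4 in WT glands.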

How the data were processed

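ChIP-seq of ERα and PR was done on formalin-fixed whole mammary glands, and each precipitation used 30 µg of chromatin and 4 µg of antibody according to the labels. The authors deposited 1 peak list per library in mm10, per the submitters' processing notes, so replicates were not pooled. The aligner and peak caller are not given in the sources used here. The deposited columns gave for every peak a score, a fold enrichment (a ratio of coverage to local expectation) and −log10 p and −log10 q values, all the authors' and not scaled between libraries. Comparisons of these values stayed within a list, apart from the cutoff of −log10 p of at least 5. That cutoff was applied alike to lists of unequal depth. Every −log10 p was at least 2. The score and −log10 q were not used.

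Summit coverage and background coverage (the 0.001 quantile of the local expectation) were inferred from fold and −log10 p, where −log10 p had to match within 0.0001, and were obtained for 99.3% to 100% of the peaks of a list. Peaks overlapping by at least 1 bp were merged over the 8 libraries into sites. Gene spans of 21887 coding genes and 14 promoters of the 10 genes came from RefSeq (GRCm38.p6), without exons. Linked peak numbers were compared as log2(number + 1). A gene was called where both libraries of 1 group lay above both of the other, read against all coding genes with a linked peak, and an exact permutation test of 2 against 2 libraries cannot go below 0.33. The labels do not say whether ERα and PR libraries shared chromatin. The series states biological replicates, without the number of animals in each, so the errors given measure the spread between these libraries.

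Named items were all 10 genes, the best-ranked site of each gene in all 8 libraries and in all 4 of a receptor, up to 6 sites per genotype-specific class, and up to 4 other pathway genes per receptor with separate groups and the widest difference. Other sites, and the pattern of all 4 ERα above all 4 PR libraries, were chosen after their values were seen. The members and lists were chosen with earlier results of these data known. Alternatives were a −log10 p of at least 5, the 20000 strongest peaks, a 10 kb window, summits chained within 150 bp, each library left out and a replicate block. The linking and counting steps were tested on simulated data. Python 3.11.15, pandas 2.3.3, numpy 2.4.6 and scipy 1.17.1 were used.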

Additional observations from a re-analysis of the deposited data

Results flagged for a closer look

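The Igfbp3 ratios had opposite signs for the receptors. The log2 ratio of linked peaks, Y541S over WT on the log2(number + 1) scale, was 1.70 for ERα, from 6 and 2 peaks in Y541S and 0 and 1 in WT, and −0.79 for PR, from 1 and 1 peaks in Y541S and 3 and 2 in WT. The 2 libraries of each genotype lay on one side for ERα and on the other for PR, and the difference between receptors was not tested. With so few peaks the ratios depend on the added 1. With a −log10 p of at least 5, within 10 kb or among the 20000 strongest peaks, neither receptor separated the genotypes.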

How the results depend on the processing

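The replicate block aside, the 10 log2 ratios with separate genotypes were recomputed 70 times in all, with 4 reversals and 6 values of 0. Leaving out 1 library cannot reverse a ratio whose genotypes are separate, so all of these came from the other settings. The 10 ratios whose genotypes overlapped, also recomputed 70 times, had the opposite sign 19 times, in 9 of the 10, so their direction is not settled. Leaving out 1 library could reverse these, so the counts for separate and overlapping genotypes are not comparable. With a −log10 p of at least 5, the Igf1 ERα ratio was −0.32. With the 20000 strongest peaks it was −0.29, that of Igf2 ERα −0.50 and that of Irs1 PR −0.34. The cause was not tested.

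With a −log10 p of at least 5, ERα sites in Y541S only numbered 5, PR sites in Y541S only 7 and PR sites in WT only 0, sites with ERα and not PR numbered 5 in Y541S and 5 in WT, genes with more peaks in Y541S numbered 2 for ERα and 7 for PR, and genes with all 4 ERα above all 4 PR libraries 0. With the 20000 strongest peaks the sites numbered 2 (ERα, Y541S only), 1 (ERα, WT only), 1 (PR, Y541S only) and 2 (PR, WT only), PR and not ERα 6 in Y541S and 9 in WT, ERα and not PR 4 in WT, and the genes 0 for ERα, 1 for PR and 2 (Igf1 and Igfbp7) for ERα above PR. With a 10 kb window ERα sites in Y541S only numbered 6, PR sites in WT only 0, ERα and not PR 4 in Y541S and 5 in WT, and the genes 1, 1 and 0. These 3 settings keep fewer peaks or less sequence. With chained summits, PR sites in WT only numbered 3. The setting for ERα above PR was chosen after seeing the data.

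Leaving out 1 library, which relaxes the rule for the group it leaves with 1 sample, gave 12 to 69 ERα sites in Y541S only (69 without Y541S replicate 2) and 4 to 38 in WT only (38 without WT replicate 2). PR sites numbered 18 to 41 in Y541S only and 4 to 30 in WT only. ERα and not PR ranged from 13 to 69 in Y541S and 12 to 63 in WT, and PR and not ERα from 30 to 49 in Y541S and 21 to 52 in WT. Genes with more peaks in Y541S ranged from 5 to 9 for ERα (9 without WT replicate 1) and 4 to 6 for PR, and genes with ERα above PR from 1 to 2 (2 without WT ERα replicate 2).

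The replicate block, which compares same-numbered libraries as pairs, gave 7 genes for ERα and 5 for PR in place of 5 and 4, and left site classes and ratios as they were by construction. The labels give the numbers without a shared animal or batch. The deviations of same-numbered libraries over genes correlated at 0.11 between genotypes for ERα and 0.018 for PR, and between ERα and PR at 0.056 in Y541S and 0.12 in WT, so the numbers were not used as pairs, and whether they mark a shared source was not tested. The part of depth was not tested: WT PR replicate 2, with a background coverage of 0.927, had 93491 peaks, and WT PR replicate 1, with 2.68, had 82982.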
